A study of Mus musculus with 4 samples.

Results

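The wells described here hold endothelial cells of blood vessels (BECs) from the mouse ear dermis whose capillary and vein gene scores were nearly equal and both higher than their artery score. There were 72 such wells among 631 wells kept as BECs and 1536 wells in all. CD31+/CD45-/Lyve1- cells of untreated adult female C57Bl/6 mice (C57BL/6 J in the methods), aged 12 to 26 weeks by the labels and given as younger in the methods, were sorted into 4 plates of 384 wells and profiled by Smart-seq2, in which each well receives a single cell and reads carry no molecular identifiers. The plates form 2 replicates with plates A and B each. Replicates are given as a pool of cells from 6 mice, without saying if each had its own pool, so p-values may measure technical spread only. There was no other genotype or treatment, so the comparisons are between classes of wells of the same samples. The gate removed CD45+ leukocytes and Lyve1+ lymphatic cells, but not other CD31+ cells or cells attached to a BEC.

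The endothelium changes along the vascular tree. Dermal capillaries exchange fluid and lipids with the tissue and carry proteins for fatty acid uptake, such as Gpihbp1, the capillary anchor of lipoprotein lipase, and Cd36, a fatty acid transporter. Postcapillary venules are where leukocytes attach and where inflammatory mediators open junctions, and they carry P-selectin (*Selp*), which captures leukocytes, and Ackr1, an atypical receptor that displays chemokines. A cell between both segments can be sought by scores for each set of genes, and the wells were chosen by such scores, that is by the levels of the score genes themselves.

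A well was kept with at least 20000 reads on genes, at most 8000 genes, reads of 2 or more of the BEC genes *Kdr*, *Cdh5* and *Pecam1*, and less than 100 CPM (counts scaled by the gene reads of the well) of *Kcnj8* and *Pdgfrb* (mural cells), *Ptprc* (leukocytes), *Prox1* and *Lyve1* (lymphatics). Each score was the mean, over 8 genes, of log2(CPM + 1) expressed as a z-value within the replicate, so that a score of 0 is the average kept well of that replicate. A well was intermediate where the artery score was lowest and the capillary and vein scores differed by less than 0.25. Wells with a capillary score higher by 0.25 or more are called capillary-side (67 wells), those with a vein score higher by 0.25 or more vein-side (52 wells), and the remaining 440 wells had an artery score that was not the lowest. The 72 intermediate wells came from all plates, with 14 wells on each plate of replicate 1 and 22 wells on each plate of replicate 2. They made up 8.31% of kept wells in replicate 1 (exact binomial 95% interval 5.59 to 11.8) and 15.0% in replicate 2 (11.1 to 19.6). Intervals cover counting error only. With 2 replicates this difference was not tested.

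**Figure D1:**
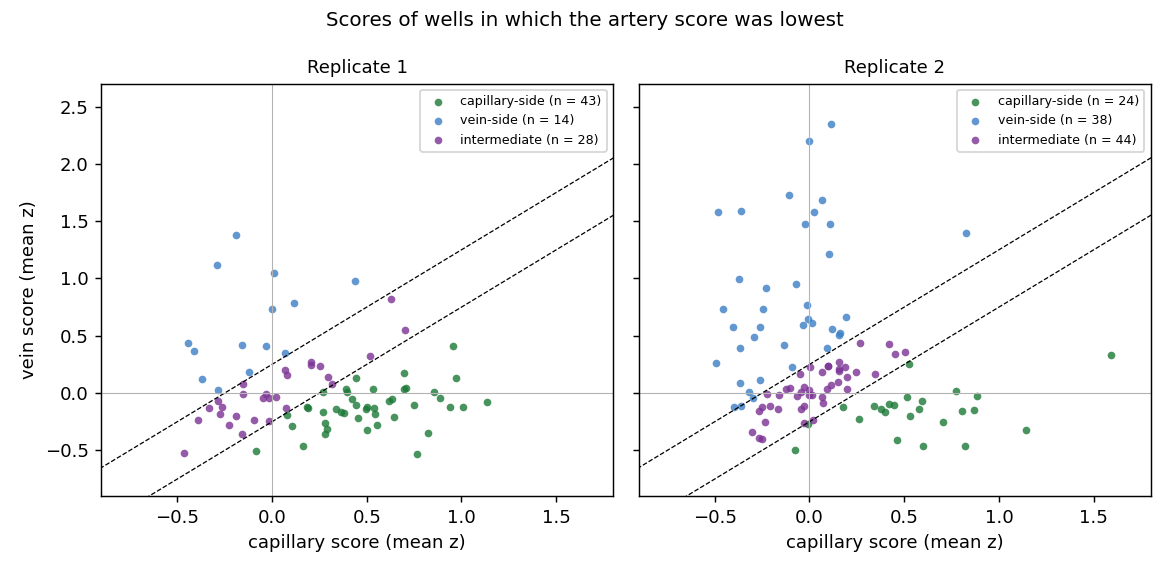
Capillary score (x axis, mean z) against vein score (y axis, mean z) of every kept well whose artery score was lowest, one point per well, in replicate 1 (left) and replicate 2 (right). The dashed lines mark a difference of 0.25, and the 28 and 44 intermediate wells lie between them, from C and V scores below 0 to both above 0.

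The limits of the class cut through a continuous cloud. The intermediate wells nearest to the capillary limit had capillary minus vein scores of 0.23, 0.23 and 0.25, and the nearest wells outside had 0.26, 0.26 and 0.27. At the vein limit, the intermediate wells had -0.23, -0.22 and -0.22 and the nearest vein-side wells -0.28, -0.25 and -0.25. Within the class, capillary scores ran from -0.46 to 0.70 and vein scores from -0.53 to 0.82. Both scores were above 0 in 29 wells, both were below 0 in 30 wells and they had opposite signs in the other 13 wells. In replicate 1, 10 wells were high and 15 low in both, and in replicate 2 these were 19 and 15 wells. In replicate 2 the wells low in both had a median of 51605 reads against 157882 in the wells high in both, while in replicate 1 the medians were 158169 and 148996.5. When every well was thinned to 20000 reads before scoring, 72 wells were again intermediate and 47 of them (65.3% of each set) were the same wells.

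In replicate 1 the median depth and number of genes of intermediate wells were near those of both sides, and in replicate 2 both were lower than on either side. The median was 143907 reads per intermediate well in replicate 1 and 127698 in replicate 2, and single wells had 20013 to 351109 reads. Capillary-side wells had medians of 133891 and 157798.5 reads, and vein-side wells 131215 and 150296. The fewest reads of a well in replicate 2 were 20013 in intermediate, 74624 in capillary-side and 20700 in vein-side wells. After thinning to 20000 reads, intermediate wells had a median of 2371 genes in replicate 1 and 1745.5 in replicate 2, capillary-side wells 2267 and 1791.5, and vein-side wells 2601 and 1970.5. The share of spike-in reads was higher in intermediate wells of replicate 2 (median 1.27%) than in capillary-side (0.790%) and vein-side wells (0.722%), a difference not seen in replicate 1 (0.314%, 0.366% and 0.264%). Well names carry a prefix for their plate, so no name could be shared between plates, and this does not check for repeated cells.

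The 4 markers of the class were checked first. They belong to the scores that chose the wells, so their values are a description. Values for plates are the mean CPM per well and are given in the order of plates A and B of replicate 1 and plates A and B of replicate 2. *Gpihbp1* stood at 1519, 2042, 243 and 271 CPM in intermediate wells, against 1958, 2382, 915 and 601 in capillary-side wells and 1360.4, 1314, 112 and 62.8 in vein-side wells. *Cd36* stood at 1577, 4073, 272 and 72.3 CPM, against 5483, 5285, 1789 and 1153 on the capillary side and 707, 3262, 84.1 and 92.7 on the vein side. Both capillary markers were thus below the capillary side on every plate, and *Cd36* of replicate 2 was close to its vein-side level. *Selp* was at 8.51, 14.5, 70.5 and 43.3 CPM in intermediate wells, at 8.84, 8.89, 8.43 and 34.1 on the capillary side and at 3.82, 448, 1096 and 1345 on the vein side. *Ackr1* was at 2.79, 23.0, 1.02 and 2.08 CPM, against 2.65, 13.1, 0 and 0.786 on the capillary side and 7.18, 363, 309 and 745 on the vein side. Both vein markers were therefore far nearer to the capillary-side than to the vein-side level in intermediate wells of 3 plates, and plate A of replicate 1, which held 4 vein-side wells, was low for both in every class.

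Few single wells held both kinds of marker at 100 CPM, a level chosen after the values were seen. At least 100 CPM of *Gpihbp1* or *Cd36* together with at least 100 CPM of *Ackr1* or *Selp* was found in 3 of 72 intermediate wells, in 2 of 67 capillary-side wells and in 10 of 52 vein-side wells. All 28 intermediate wells of replicate 1 reached this level for a capillary marker and not for a vein marker. So did 42 of 43 capillary-side and 11 of 14 vein-side wells of replicate 1, so this did not set the class apart. In replicate 2, 21 of 44 intermediate wells reached it for a capillary marker only, 1 for a vein marker only and 19 for neither. There 22 of 24 capillary-side and 5 of 38 vein-side wells reached it for a capillary marker only, and 1 and 12 for neither. Reads at any level gave another count, since 22 of 28 intermediate wells of replicate 1 (78.6%, exact binomial 95% interval 59.0 to 91.7) and 23 of 44 of replicate 2 (52.3%, 36.7 to 67.5) had a read of both kinds. After thinning to 20000 reads these shares were 39.3% (21.5 to 59.4) and 15.9% (6.64 to 30.1), compared with 25.6% (13.5 to 41.2) and 8.33% (1.03 to 27.0) of capillary-side wells and 64.3% (35.1 to 87.2) and 39.5% (24.04 to 56.6) of vein-side wells. With all reads the shares were 86.0% (37 of 43) and 20.8% (5 of 24) of capillary-side and 100% (14 of 14) and 60.5% (23 of 38) of vein-side wells, so that intermediate wells were below both sides in replicate 1 and between them in replicate 2. These counts use genes that chose the wells and do not settle what the cells are, and the wells are called intermediate after their scores only.

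**Figure D2:**
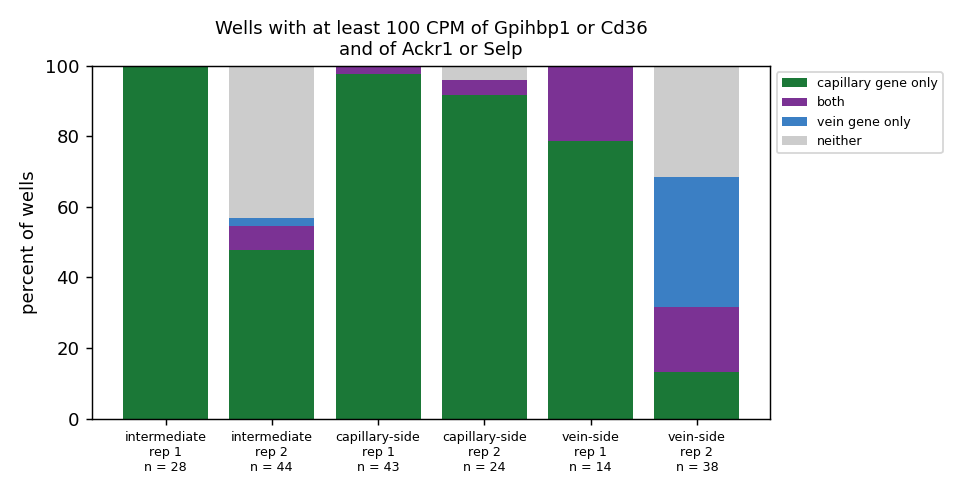
Percent of wells (y axis) with at least 100 CPM of a capillary marker (*Gpihbp1* or *Cd36*), of a vein marker (*Ackr1* or *Selp*), of both or of neither, by class and replicate (x axis, with the number of wells). The bars of intermediate wells hold 0 of 28 and 3 of 44 wells with both.

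The other capillary score genes followed *Cd36* in part. *Cd300lg*, a mucin-like receptor of capillary endothelium, was the most widely detected, with reads in 70 of 72 intermediate wells. Its level was 1584, 1839, 1139 and 1371 CPM, below the capillary side on every plate (2623, 2143, 1792 and 2805) and above the vein side on every plate (403, 1336, 1122 and 549.9). *Aqp7*, a water and glycerol channel, was split by replicate: it was at 301 and 535 CPM on the plates of replicate 1 and at 0.302 and 4.17 CPM on those of replicate 2, where the capillary side had 234 and 519.8 and the vein side 0.160 and 1.10. *Rgcc*, a regulator of the cell cycle and of endothelial growth, was at 293, 430.2, 153 and 59.5 CPM against 944, 925, 173 and 431 on the capillary side. *Timp4*, a metalloproteinase inhibitor, was at 397, 1770.4, 167 and 20.3 CPM against 1350.1, 1957, 239 and 52.8. These 4 genes were below the capillary side on all 4 plates, as were *Gpihbp1*, *Cd36* and *Car4*. *Btnl9* and *Car4*, a butyrophilin-like surface protein and a carbonic anhydrase on capillary walls, had reads in 16 and 9 of 72 wells, and a single well held 74.8% and 91.2% of the summed CPM of each.

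The vein score genes did not behave alike. *Vwf*, the clotting factor stored in endothelial granules, was at 411, 428, 2102 and 1372 CPM in intermediate wells, above the capillary side on every plate (322, 159, 582 and 1306). On the vein side *Vwf* was at 637, 624, 1669 and 1947 CPM. Reads of *Vwf* were in 70 of 72 intermediate wells, and 53 reached 100 CPM, against 28 of 67 capillary-side and 42 of 52 vein-side wells. *Lrg1*, a secreted protein raised in inflammation, was at 155, 418, 229 and 352 CPM, against 272, 779, 1742 and 1132 on the vein side and 37.4, 120.3, 629 and 292 on the capillary side. The adhesion receptor gene *Sele* behaved like *Selp*, at 6.35, 21.6, 13.7 and 12.0 CPM against 10.3, 70.0, 1718 and 711 on the vein side. *Bst1*, an ectoenzyme, had reads in 5 of 72 wells and *Il1r1*, the interleukin 1 receptor, in 21. *Ephb4*, the receptor that marks developing veins, did not order the classes: it was at 471, 199.7, 246 and 193 CPM in intermediate, 508, 453, 149 and 120.3 in capillary-side and 401, 409.7, 174 and 84.7 in vein-side wells.

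Expressed as a place between the sides, where 0 is the capillary-side and 1 the vein-side mean CPM of the same replicate, *Cd36* lay at 0.90 and 0.93 in replicates 1 and 2, *Gpihbp1* and *Cd300lg* at 0.49 and 0.49 in replicate 1 and at 0.74 and 0.79 in replicate 2, and *Aqp7* at 0.42 and 0.996. *Vwf* lay at 0.48 and 0.97, and in replicate 2 it was above the vein side on plate A and near the capillary side on plate B. *Selp* lay at 0.01 and 0.03, *Sele* at 0.05 and -0.02, and *Bst1* at 0.03 and 0.02. Places pool plates A and B of a replicate, which the classes shared unequally. Replicate 1 had 14 and 14 intermediate, 17 and 26 capillary-side and 4 and 10 vein-side wells on plates A and B. A place can therefore differ from that of either plate. These places describe genes that the rule used. The pair *Cd300lg* and *Vwf*, chosen after its values were seen, reached 100 CPM together in 45 of 72 intermediate, 25 of 67 capillary-side and 33 of 52 vein-side wells.

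The rule requires the artery score to be the lowest of the 3, and artery score genes are given as a description. *Sox17*, a SoxF factor of arterial identity, was the highest, at 161, 359.8, 182 and 169.6 CPM. *Gja4*, a connexin of arterial junctions, was at 19.0, 66.7, 22.6 and 7.50 CPM and *Efnb2*, the arterial partner of *Ephb4*, at 16.9, 19.7, 11.4 and 12.0. The plate means of *Efnb2* were all above those of both sides, the highest of which was 8.77. This order was picked out after the values were seen. Of the 16402 genes tested below, which leave out the genes of the rule, 0.195% showed such a separation. *Hey1*, *Fbln5*, *Bmx*, *Sema3g* and *Gja5* had reads in 16, 22, 11, 4 and 1 of 72 wells.

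**Figure D3:**
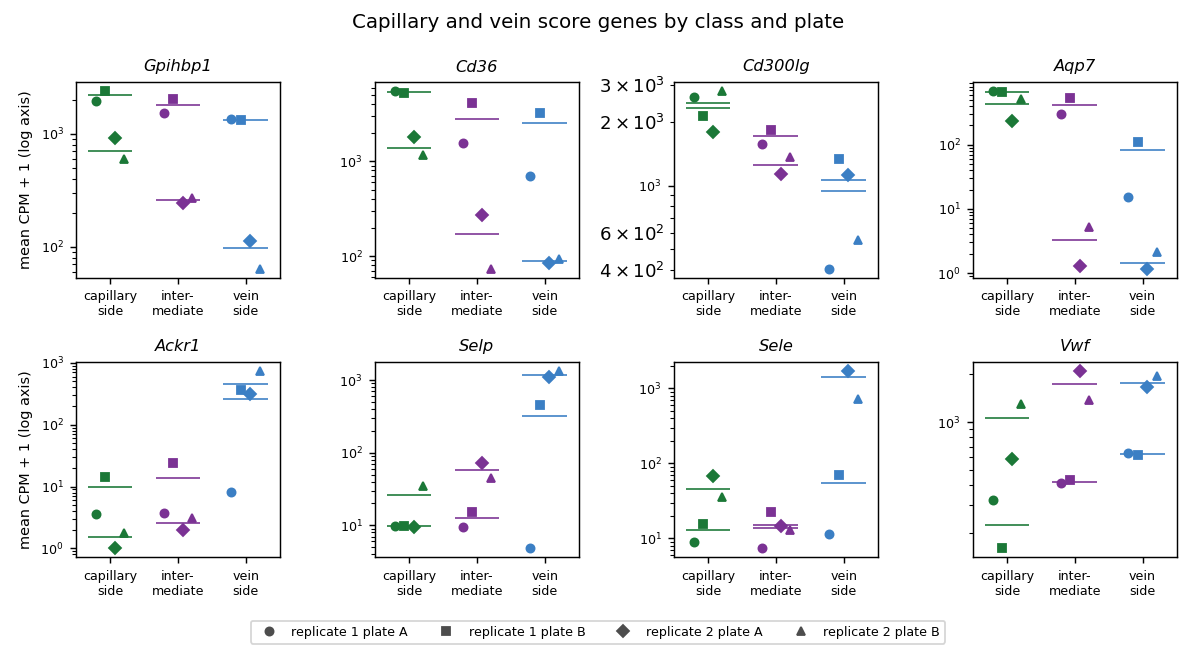
Mean CPM + 1 per well (y axis, log axis) of 4 capillary and 4 vein score genes in capillary-side, intermediate and vein-side wells (x axis), with one symbol per plate and a horizontal line at each replicate mean. *Selp*, *Sele* and *Ackr1* of intermediate wells sit near the capillary side, *Cd36* and *Cd300lg* sit below it and *Vwf* of replicate 2 sits above the vein side on plate A and near the capillary side on plate B.

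Genes that the rule did not use were tested on raw counts summed per replicate and class, with the replicate as a block (edgeR's quasi-likelihood test). No gene of 16402 passed a Benjamini-Hochberg adjusted p of 0.05 between intermediate and capillary-side wells, between intermediate and vein-side wells, or between intermediate wells and the mean of both sides, so the background of called genes was 0.0% in each. The smallest adjusted p was 0.863, 0.799 and 0.830. At an unadjusted p of 0.05, 810 genes (4.94%), 844 genes (5.15%) and 959 genes (5.85%) passed. With the Wald test of DESeq2, the same sums gave 449, 482 and 431 called genes (3.57%, 3.83% and 3.26% of genes with an adjusted p), and limma on mean CPM called 0. Between vein-side and capillary-side wells edgeR called 0 genes as well, with 980 (5.97%) at an unadjusted p of 0.05 and 607 (4.82%) by DESeq2. It called 7 for the sides with no filter on low counts and 25 with thinned scores. The median standard error of a log2 difference was 1.66 against the capillary side and 1.69 against the vein side, so that only very large differences could have passed, and a p that misses the threshold does not show that classes were alike. All differences below are therefore values that did not pass the test.

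Beside the fit, the order of classes within each plate was counted, as a description of plates that share pools. Over all genes tested, 5.76% were higher in intermediate than in capillary-side wells on 4 of 4 plates and 4.01% were lower. Against vein-side wells 5.96% were higher and 3.1% lower. Higher than both sides on every plate were 207 genes (1.26%) and lower than both 76 genes (0.463%).

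Immediate early genes are transcription factors and regulators switched on quickly by signals and by stress such as enzymatic tissue dissociation. They were listed together with heat shock genes such as *Hspa1a* and *Hsph1*, which dissociation is also known to raise. Of the 27 genes of this dissociation and immediate early list, 11, *Hsph1* among them, were higher in intermediate than in capillary-side wells on all 4 plates and 0 were lower on all plates. The fitted log2 difference was above 0 for 25 of 27, with a median of 0.56 against 0.03 over all genes. The median was 1.29 without replicate 1 and 0.29, with 19 of 27 above 0, without replicate 2. None of the 27 passed edgeR's test (adjusted p of 0.863 or more), 11 had an unadjusted p under 0.05, and DESeq2 called *Egr2* alone against the capillary side and *Hspa1a* alone, as higher, against the vein side. Against vein-side wells the median was -0.23, compared with 0.12 over all genes, and 10 of 27 were above 0. This median turned to 0.06 without plate A of replicate 2 and to 0.0032 without replicate 1.

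The members ranged from abundant to sparse genes. *Egr1*, a zinc finger factor, was at 1616, 1217, 1619.6 and 1803 CPM in intermediate wells, at 1175, 815, 1511 and 1146 on the capillary side and at 2537, 1563, 2668 and 2299.5 on the vein side. It lay between the sides on each plate, as 0.0732% of all genes did in this direction. *Fos*, a subunit of the AP-1 factor, was at 3674, 2966, 3103 and 3688 CPM in intermediate wells against 2956, 2411, 2903 and 2411 on the capillary side, so that plates did not overlap, a separation shown by 1.19% of all genes in this direction, whereas its vein-side plates ran from 1486 to 5754. *Ier3*, a survival factor induced by NF-kappaB, was at 873, 1225, 546 and 884 CPM against 425, 886, 192 and 436. *Junb* was at 1163, 1302, 1190.4 and 1036 CPM against 1051, 751, 526 and 535, with a log2 difference of 0.76 ± 0.23 (SE). *Btg2*, an antiproliferative gene, was at 1121, 1394, 1393 and 1219.7 CPM against 952, 910.5, 463 and 854, again without overlap. These transcripts were present in most wells, from 64 of 72 for *Ier3* and *Junb* to 72 of 72 for *Fos*, and no well held over 8.76% of the summed CPM of any of these 5 genes. *Egr2*, a factor related to *Egr1*, was sparser, with reads in 21 of 72 wells, and was at 25.9, 54.6, 68.8 and 135 CPM against 4.70, 4.75, 0 and 27.2, a log2 difference of 3.10 ± 0.58 that was 5.03 with a window of 0.35 and 1.90 with thinned scores. *Fosl1* was higher than on both sides on every plate, but with reads in only 5 of 72 wells.

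*Zfp36*, which degrades cytokine transcripts, and *Dusp1*, a phosphatase of MAP kinases, were also among the abundant members. *Dusp1* was at 1514, 964, 1199.6 and 1074 CPM in intermediate and 893, 1467, 743 and 319.8 in capillary-side wells, and *Zfp36* at 2647, 1599.7, 1301 and 1710.4 against 1985, 1837, 1599 and 1182. Neither kept 1 order on all plates. The heat shock gene *Hspa1a* was higher than on the vein side on every plate (253, 294, 24.6 and 75.4 against 12.9, 81.0, 3.01 and 0.955 CPM). Median reads per well were higher in intermediate than in capillary-side wells in replicate 1 and lower in replicate 2. The median share of mitochondrial reads had the same order as the medians of this list, at 1.77% and 2.60% in intermediate, 1.53% and 2.38% in capillary-side and 1.90% and 2.68% in vein-side wells. With counts thinned to 20000 reads, 23 of 26 genes of the list were above 0 against the capillary side (median 0.52), and with thinned scores 22 of 27 (median 0.62). Against the vein side these were 12 of 26 (median -0.09) and 13 of 27 (median -0.20). The part of depth or of mitochondrial content in this pattern was not tested.

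**Figure D4:**
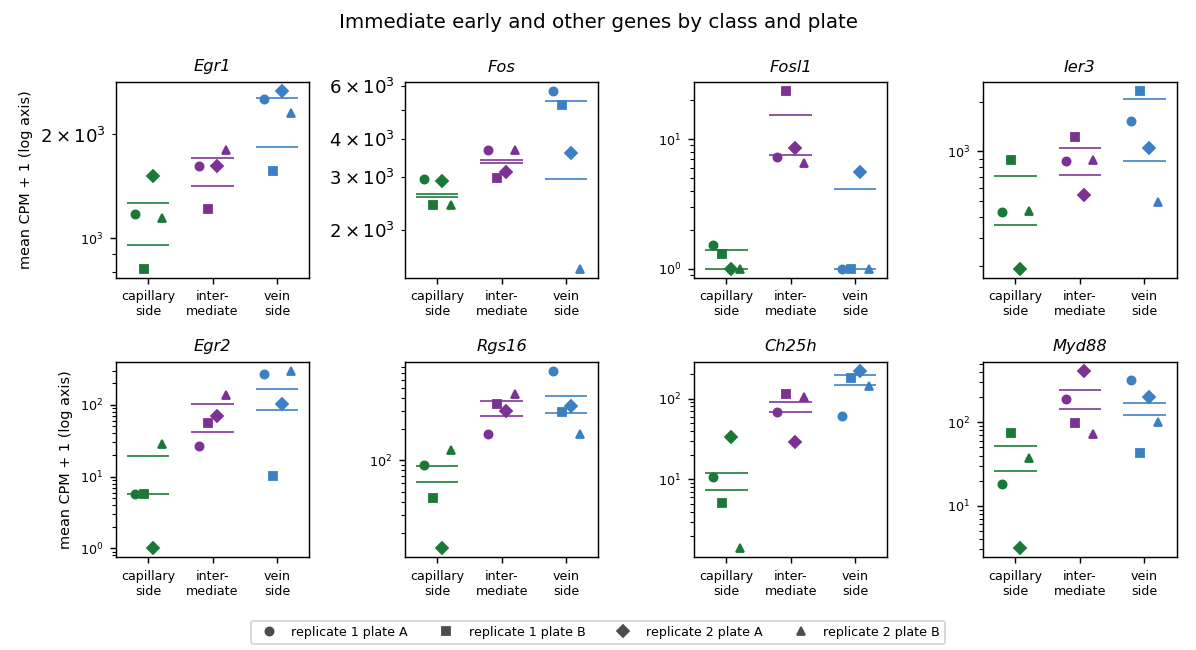
Mean CPM + 1 per well (y axis, log axis) of 5 immediate early genes and of *Rgs16*, *Ch25h* and *Myd88* in each class (x axis), one symbol per plate, with lines at replicate means. *Fos*, *Fosl1* and *Rgs16* of intermediate wells are above every capillary-side plate, and *Egr1* lies between the sides.

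The 10 genes with the smallest p against capillary-side wells did not pass the test, and are named as the strongest of those that failed. *Rgs16*, an inhibitor of G protein signalling at chr1:153740349-153745468 (mm10, GENCODE vM21 annotation, plus strand), was at 179, 348, 300.1 and 439 CPM in intermediate wells against 88.9, 41.9, 13.1 and 123 on the capillary side. The groups of plates did not overlap, as for 1.19% of all genes in this direction, and the log2 difference was 2.32 ± 0.39 with an adjusted p of 0.863 (edgeR). On the vein side *Rgs16* was at 729.5, 288, 335 and 177 CPM, overlapping the intermediate wells. *Ch25h*, which makes 25-hydroxycholesterol and lies at chr19:34473778-34475164 (minus strand), was at 67.5, 113, 28.0 and 105 CPM against 9.82, 4.08, 32.6 and 0.398, with a log2 difference of 3.66 ± 0.79. It was 1.38 with a window of 0.15, 2.00 without plate B of replicate 2 and 6.01 without plate A of replicate 2. Reads of *Ch25h* were in 21 of 72 wells, 1 of which held 40.4% of its summed CPM. *Myd88*, the adaptor of Toll-like and interleukin 1 receptors at chr9:119335934-119341411 (minus strand), was at 191, 98.4, 414 and 71.0 CPM against 17.4, 73.2, 2.09 and 36.2. *Egr2* of the immediate early list was among the 10 as well. The remaining names by this rule were *Gaa*, *Fam57a*, *Fbxo28* and the mitochondrial *mt-Nd5*, with higher values, and *Tmem198b* and *Cab39l*, with lower values. The direction of *Gaa* was not stable, with a log2 difference of 7.33 that was 1.28 with a window of 0.15, -1.10 with thinned scores and -2.11 with a limit of 50 CPM on non-BEC genes. With thinned scores *Fam57a* went from 5.06 to 1.90, *Myd88* from 2.27 to 1.28, *Tmem198b* from -4.19 to -1.29 and *Cab39l* from -2.80 to -0.36, and *Fbxo28* went from 5.58 to 3.25 with a limit of 300 CPM. *mt-Nd5*, a subunit of respiratory complex I, was at 1216, 823, 4679.9 and 10393 CPM against 664, 417, 774 and 2156. Its log2 difference was 0.93 ± 0.19 on summed counts, 1.57 by limma on mean CPM and 1.65 with every well thinned to 20000 reads, and it was 0.72 without replicate 2 and 1.43 without replicate 1.

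Against vein-side wells, 9 of the 10 smallest p-values belonged to *Pdp1*, *Clic5*, *Pld2*, *Ntmt1*, *Gnl2* and *Glb1*, which had higher values in intermediate wells, and to *Ptgs1*, *Creld1* and *R3hcc1*, which had lower values. *Ptgs1*, the constitutive cyclooxygenase at chr2:36230426-36252272 (plus strand), was at 0.830, 5.11, 2.82 and 0.334 CPM in intermediate wells. It was higher on the vein side, at 1.22, 151, 110.0 and 213, and on the capillary side, at 3.32, 45.4, 31.9 and 41.6, so that intermediate wells were the lowest class on every plate. The log2 difference was -5.89 ± 1.12 against the vein side, and -3.37 with a window of 0.35 and -3.27 with thinned scores. *Clic5*, an intracellular chloride channel protein, was at 43.7, 353, 226 and 8.64 CPM in intermediate wells and at 16.4, 23.6, 18.7 and 0 on the vein side. *Pld2*, a phospholipase, was at 28.1, 104, 82.8 and 76.0 CPM against 1.95, 4.92, 1.04 and 1.57, without overlap (1.26% of all genes lay above the vein side in this way). Reads of each of these 9 genes were in 6 to 30 of 72 wells. With a window of 0.15, the log2 difference of *Pld2* went from 5.60 to 1.77, that of *Clic5* from 3.18 to 0.997, that of *Gnl2* from 4.59 to 2.03 and that of *Glb1* from 8.79 to 2.71. With thinned scores *Pdp1* turned from 4.63 to -0.57, *Pld2* went to 0.40, *Clic5* to 1.45, *Ntmt1* from 5.32 to 1.43, *Creld1* from -6.72 to -3.25 and *R3hcc1* from -6.96 to -1.13.

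Against the mean of both sides, the names by the same rule were *Gaa*, *Lrrc47*, *Pdp1*, *Glb1*, *Smim1*, *Smarcc1* and *Pld2*, with higher values, and *Ptgs1*, *Creld1* and *Tmem198b*, with lower values. *Lrrc47* and *Smim1* were above both sides without overlap, as were 0.195% of all genes, but with a window of 0.15 their log2 differences went from 6.95 to 0.78 and from 6.93 to 0.66. *Smarcc1* went from 5.43 to 1.59 with thinned scores, and *Gaa* (-0.15) and *Pld2* (-0.56) with thinned scores and *Glb1* (-0.11) with the window of 0.15 were below 0. *Lrrc47* and *Smim1* overlap on opposite strands of chromosome 4 (154011731 to 154021513 and 154020470 to 154026230). Their levels were nearly the same, at 236, 15.2, 13.3 and 31.1 CPM and at 231, 13.0, 13.3 and 31.1. Whether their reads fall in the overlap was not tested, and *Lrrc47* and *Smim1* are counted here as a single signal. *Creld1* was below both sides without overlap, as were 0.0671% of all genes, with 1.42, 1.06, 1.63 and 0.288 CPM in intermediate wells. *Glb1* and *Gaa*, both lysosomal enzymes, had reads in 9 and 11 of 72 wells, and a single well held 60.0% and 57.3% of the summed CPM.

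Most vein genes that the scores did not use had lower fitted values than on the vein side. Of 22 such genes, 3 had a fitted log2 difference above 0 against vein-side wells, with a median of -0.76 against 0.12 over all genes, and against capillary-side wells 13 of 22 were above 0, with a median of 0.22 against 0.03. The first median was -0.49 without replicate 2, with 7 of 22 above 0. Without replicate 1 these medians were -1.41 and -0.05, and the latter was also below 0 without plate A (-0.04) or plate B (-0.12) of replicate 1. None passed edgeR's test. DESeq2 called *Ch25h* (higher) and *Ptgs1* (lower) against the capillary side, *Lbp*, *Ptgs1* and *Tll1* (all lower) against the vein side, and *Ptgs1* and *Tll1* (lower) against the mean of both. *Tll1*, a secreted protease, had reads in 10 of 72 wells. *Icam1*, a ligand of leukocyte integrins, was at 14.8, 164, 655 and 13.5 CPM in intermediate wells against 268, 835, 1099 and 575 on the vein side, lower on each plate, and a single well held 50.7% of its summed CPM. *Lbp*, the lipopolysaccharide binding protein, was at 118, 5.16, 2.40 and 12.1 CPM against 2.75, 310.0, 249.6 and 246 on the vein side, higher on plate A of replicate 1 and lower on the other plates. *Emcn*, a sialomucin of capillaries and veins, was at 646, 970.4, 739.9 and 381 CPM against 1411, 1635, 1051 and 919.8. *Plvap*, which forms the diaphragms of caveolae and fenestrae, was read in every intermediate well, at 2360.3, 2886, 2986 and 2175 CPM. Its vein-side level was higher on every plate, at 4515, 4209.9, 4027 and 2862, with a log2 difference of -0.49 ± 0.23. *Il6st*, the shared receptor chain of the interleukin 6 family, was at 540.3, 625, 526 and 785 CPM and was higher than the vein side on plate A of replicate 1 only (338, 817, 1566 and 1904). *Nr2f2*, the factor of venous identity, was at 26.1, 28.8, 2.62 and 2.20 CPM and overlapped both sides.

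Capillary genes outside the scores did not place the wells on either side. Of 15, 5 were above 0 against the capillary side (median -0.27) and 6 against the vein side (median -0.21). The capillary-side median was 0.12 with counts thinned to 20000 reads and 0.0044 with scores from thinned counts, both with 8 of 15 above 0, and 0 without replicate 1. The vein-side direction turned without replicate 2 (11 of 14, median 0.52), plate B of replicate 1 (10 of 14, median 0.99) or plate A of replicate 2 (8 of 15, median 0.26). It turned as well with counts thinned to 20000 reads (9 of 15, median 0.25), with scores from thinned counts (median 0.18) and with a limit of 50 CPM on non-BEC genes (median 0.18). *Fabp4*, an intracellular fatty acid carrier, was at 1538, 3150.4, 255 and 637 CPM in intermediate wells and was lower than the capillary side on each plate (3309, 4082, 941 and 664). On the vein side it was at 617, 2581, 968 and 1349. *Adgrf5*, an adhesion receptor, was at 1119, 1734, 997 and 748 CPM and *Sgk1*, a stress-responsive kinase, at 1156, 636, 697 and 101, both overlapping the sides. *Flt1*, the decoy receptor for VEGF, was the only member above both sides on each plate, at 768, 820.2, 1191 and 759 CPM against 507, 784, 858 and 629 on the capillary side and 552, 459, 625 and 637 on the vein side. Its intermediate plates did not overlap the vein side, as for 1.26% of all genes in this direction. *Lpl* and *Esm1*, a lipase and an endothelial proteoglycan, were at 14.8 to 122 and 2.13 to 478 CPM.

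Arterial genes outside the scores had medians of 0.17 and 0.17 against the capillary and vein sides, over 22 genes. Above 0 were 12 and 13 of the 22. *Cxcl12*, a chemokine, was at 1799, 2386, 2399 and 2358 CPM in intermediate wells and at 2599, 2869, 2713 and 2851 on the capillary side, so that plates did not overlap, as for 0.969% of all genes in this direction. *Tm4sf1*, a membrane organizer, was at 1167 to 1725 CPM, and *Ltbp4*, a binding protein of TGF-beta, at 658 to 1419.9 CPM and below the capillary side on every plate. *Nrp1*, a coreceptor of VEGF, was at 662, 619.6, 259.6 and 437 CPM, below the capillary side on every plate (844, 1284, 633 and 714). *Gja1*, a connexin, was at 364, 252, 514 and 628 CPM and above the vein side on every plate (328, 130.4, 418 and 331). *Cytl1*, which encodes a cytokine-like protein, was above both sides on every plate, at 560, 3.03, 0.704 and 7.56 CPM against at most 2.03 on the capillary side and 0, 2.78, 0.202 and 6.47 on the vein side. DESeq2 called *Cytl1* as higher in all 3 comparisons and no other gene of this list, but reads were in 10 of 72 wells, of which 1 held 96.8% of the summed CPM. *Gja1* and *Cytl1* were named after their values were seen.

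Junction genes are the subject of the study, and claudin-5, encoded by *Cldn5* at chr16:18776847-18778262 (plus strand), is the main claudin of endothelial tight junctions. *Cldn5* was at 1098, 567, 947 and 397 CPM in intermediate wells, at 1175, 971, 2475 and 1095 on the capillary side and at 788, 718, 538 and 222 on the vein side. It was below the capillary side on each plate and above the vein side on 3 of 4 plates, at a place of 0.70 and 0.79 between the sides in replicates 1 and 2. The log2 difference was -0.40 ± 0.29 against the capillary side and 0.69 ± 0.30 against the vein side, and neither passed edgeR's test. On mean CPM *Cldn5* was thus nearer to the vein side and on summed counts nearer to the capillary side. The place of 0.70 pools plate A of replicate 1, where *Cldn5* was near the capillary side, and plate B, where it was below both sides. Reads of *Cldn5* were in 67 of 72 intermediate wells, and 43 reached 100 CPM, against 48 of 67 capillary-side and 24 of 52 vein-side wells.

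Of the 40 junction genes listed, 35 had enough counts to be tested and 4 had no read in intermediate wells. The median log2 difference of the 35 was -0.24 against the capillary side and 0.10 against the vein side, where all genes had 0.03 and 0.12. DESeq2 called *Cgnl1* (higher) and *Marveld2* (lower) against the capillary side and *Marveld2* (lower) against the mean of both, but *Cgnl1* had reads in 6 of 72 wells, of which 1 held 79.6% of the summed CPM, and *Marveld2* in none. Without replicate 1 the median of the junction genes against the capillary side was 0.09, and without plate B of replicate 1 that against the vein side was -0.12. *Ctnnb1*, which encodes beta-catenin of adherens junctions, was the only member above both sides on each plate, at 1890.3, 1760.2, 1436 and 942 CPM against 1681, 1418, 941 and 709 and against 1413, 1174, 854 and 636. The log2 differences of *Ctnnb1* were 0.43 ± 0.21 and 0.48 ± 0.21. *Ptprb*, the phosphatase that restrains Tie2 and VE-cadherin phosphorylation, was the only member below both sides on each plate, at 893, 1017, 776 and 648 CPM against 1289.7, 1529, 939 and 930.1 and against 1259, 1032, 852 and 1653. *Esam*, an adhesion molecule of endothelial tight junctions, was at 2166, 1808, 1630.1 and 1435 CPM and *Cdh13*, a cadherin without a cytoplasmic tail, at 1637, 1202, 1259 and 633. *Cdh13* was above the vein side on each plate (1318, 1099, 856 and 616), and its log2 difference was -0.24 ± 0.21 against the capillary side. *Esam* kept no order, with a log2 difference of 0.02 ± 0.17 against the capillary side.

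The junctional adhesion molecules *F11r* and *Jam2* were at 656 to 1047 and 284 to 1066 CPM and *Jam3* at 108 to 206 CPM, all overlapping both sides. The catenins *Ctnna1* and *Ctnnd1* were at 231 to 581 and 37.1 to 462 CPM, and *Ctnnd1* was above the capillary side on each plate. The scaffold gene *Tjp1* was at 41.6 to 367 CPM, and the angiomotin-like genes *Amotl1* and *Amotl2* at 69.7 to 428 and 103 to 190.0 CPM. *Cldn15*, *Cldnd1*, *Ceacam1*, *Nectin2* and *Nectin3* had reads in 22, 19, 30, 27 and 11 of 72 wells, and *Nectin1* in 2. No intermediate well held a read of *Ocln*, *Marveld2*, *Marveld3* or *Igsf5*, and with 0 of 72 wells the upper limit of the share with a read is 4.17%. The histamine receptor genes *Hrh1* and *Hrh2* were read in 7 and 1 of 72 wells. Plate means of *Hrh1* were at most 2.23 CPM in intermediate wells, which is at the limit of detection at this depth.

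**Figure D5:**
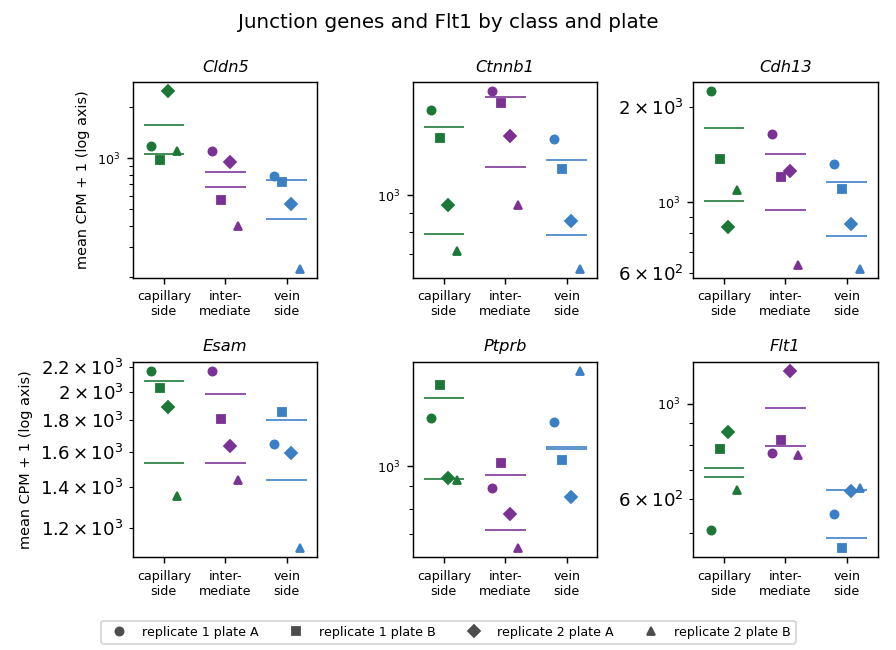
Mean CPM + 1 per well (y axis, log axis) of 5 junction genes and *Flt1* in each class (x axis), one symbol per plate, with lines at replicate means. Within each plate *Ctnnb1* and *Flt1* of intermediate wells were above both sides and *Ptprb* below both, while *Cldn5* was below the capillary side.

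Genes of permeability signalling were read widely and showed no common direction, with medians of -0.09 and 0.12 over 32 genes. Against the vein side DESeq2 called *Yes1*, a Src family kinase, as higher and *Ptafr*, the receptor of platelet-activating factor, as lower. *Ramp2*, the partner of the adrenomedullin receptor, was at 850.1, 1207, 820.1 and 926 CPM. *S1pr1*, the barrier-stabilizing sphingosine 1-phosphate receptor, was at 236, 539, 367 and 1808 CPM, and a single well held 50.3% of its summed CPM. Of caveolar genes, *Cav1* was at 4384, 4451, 2827 and 3016 CPM and was above the vein side on each plate (3897, 3874, 1734 and 1178). *Cavin2*, a caveolar coat protein, was at 1100.0, 2275, 501 and 496 CPM. *Ehd2*, which anchors caveolae at the membrane, was below the capillary side on each plate, at 603, 1007, 576 and 417 CPM against 1402, 1204, 739.6 and 1752, with a log2 difference of -0.79 ± 0.23. Of 11 caveolar and diaphragm genes tested, 3 were above 0 against the capillary side (median -0.32) and 5 against the vein side (median -0.02), where 8362 and 8859 of all 16402 genes were above 0.

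Leukocyte adhesion and chemokine genes outside the scores had a median of -0.73 against the vein side and -0.09 against the capillary side, over 22 genes. DESeq2 called the chemokine *Cxcl10* as lower than on the vein side, where 2 plates had none. *Cd34*, a sialomucin, was at 3168, 1709, 1564 and 815 CPM and *Cd47*, the integrin-associated "do not eat" signal, at 297, 348, 649 and 685. *Cd47* was below the vein side on each plate (619, 460.1, 699.8 and 859). Of 26 genes for inflammatory receptors and acute-phase proteins, 20 were above 0 against the capillary side (median 0.27) and 9 against the vein side (median -0.39). The first median was 0.68 without replicate 1 and 0.10 without replicate 2. The second was -0.09 without plate A of replicate 2, -0.20 without replicate 1 (12 of 25 above 0), -0.17 with a window of 0.15, -0.19 with a limit of 50 CPM on non-BEC genes and -0.68 with thinned scores. *Nfkbia*, the inhibitor of NF-kappaB, was at 924, 579, 672 and 535 CPM, *Tnfrsf1a*, a TNF receptor, at 564, 498, 319 and 228, and *Csf2rb*, the common beta chain of cytokine receptors, at 314, 211, 633 and 553. None of these 3 genes kept 1 order against either side on all plates. DESeq2 called *Myd88* (higher) against the capillary side and *Lbp* (lower) against the vein side.

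Transcription factors of endothelial identity had medians of -0.26 and -0.0046 against the capillary and vein sides over 35 genes. *Epas1*, *Sox18* and *Id3* were at 646 to 1763, 523 to 1171 and 318 to 1433 CPM, and *Id3* was below the vein side on each plate. *Fli1*, an ETS factor, was below the capillary side without overlap, at 245, 275, 237 and 233 CPM against 559, 475, 406 and 429.7. Such a separation was shown by 0.969% of all genes. Another ETS factor, *Erg*, was above both sides on each plate, at 174, 183, 165 and 50.4 CPM, and *Elk3* was below both sides on each plate, at 581, 467, 465 and 274 CPM. Lipid uptake genes had medians of 0.08 and 0.03 over 15 genes, and *Scarb1*, the HDL receptor, and *Apoe* were at 2468 to 3410.5 and 1224 to 2117 CPM. Basement membrane and matrix genes had medians of -0.04 and 0.14 over 20 genes, with *Sparc*, *Sparcl1* and *Igfbp7* read in every intermediate well. Antigen presentation and interferon genes had medians of -0.12 and -0.04 over 21 genes. *H2-D1*, *H2-K1* and *B2m*, which build class I molecules, were at 1337 to 2107, 1023 to 1434 and 948 to 1444 CPM. On each plate *H2-K1* was below the vein side and *B2m* below the capillary side. *Bst2*, an interferon-induced antiviral protein, was below the capillary side without overlap (177, 102, 159 and 129 against 314, 258, 226 and 310.2 CPM). Cell cycle genes had medians of 0.44 and -0.35 over 12 genes and were sparse. *Mki67* had no read in 72 wells, and *Pcna* and *Tyms* were at 49.7 to 121 and 15.9 to 35.0 CPM. *Flt1*, *Ptprb*, *Erg*, *Elk3*, *Fli1*, *Bst2*, *Ehd2*, *Fosl1* and *Hspa1a* were named for their order across plates after their values were seen.

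Markers of other cells were present at uneven levels. Of 10 mural markers, 9 had reads in intermediate wells, with *Cnn1* at 0 and summed levels of 543, 2213, 452 and 889 CPM, against 1801, 1744, 107 and 302 on the capillary side and 236, 1133, 547 and 498 on the vein side. A sum of 1000 CPM or more of these markers was found in 15 of 72 wells. All 6 lymphatic markers had reads, with sums of 36.1, 4.13, 322 and 187 CPM in intermediate, 127, 92.5, 10.5 and 61.0 in capillary-side and 1.99, 28.3, 625 and 97.0 in vein-side wells. Of 8 fibroblast markers all had reads, with sums of 75.5 to 252 CPM, and of 8 immune markers 6 had reads, with *Coro1a* and *Cd52* at 0 and sums of 1.06 to 47.6 CPM. Schwann and nerve markers summed to 0.215 to 4.52 CPM, and *Sox10* and *Cdh19* were among those at 0. Keratinocyte markers reached 1934 CPM on plate A of replicate 1 against at most 28.4 on the other plates, and 1 well held 96.0% of their sum. Red blood cell genes reached 1150 CPM on plate B of replicate 1, where 1 well held 84.8%. Without the 3 wells with 1000 CPM or more of either, an alternative chosen after seeing the data, edgeR again called 0 genes in each comparison, with 820, 868 and 965 genes at an unadjusted p of 0.05. The part of mural and lymphatic reads in the class was not tested.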

How the data were processed

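Deposited tables held raw counts of reads per gene, 1 column per well and 384 wells per plate, for 46517 genes and 92 ERCC spike-ins. The authors aligned single-end reads to mm10 (GRCm38), removed duplicate reads and counted reads per gene, so that a count of a short, abundant transcript can be capped by the duplicate filter. The submitters' processing notes name TopHat2 2.1.1, SAMtools 0.1.18 and Subread 1.4.6-p5, and strand use and annotation release are not given in the sources used here. Counts of PCR reads are not counts of molecules. The members, gene lists and tests were chosen with earlier results of these data known.

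CPM was computed over gene reads without spike-ins. Doublets were not called. The guards were the limit of 8000 genes, which took wells from 1228 to 1225, and the limit of 100 CPM on non-BEC genes, which took them from 1175 to 631. The latter covers mixtures with mural, lymphatic or CD45+ cells only. Counts were summed per replicate and class (8 sums, 3 residual degrees of freedom), and genes reaching 10 counts in 2 or more sums were fitted with edgeR 4.0.16 (TMM, quasi-likelihood, replicate as a block, Benjamini-Hochberg threshold 0.05). The 32 genes of the rule were kept in library sizes and left out of tests. Cells are not replicates. With the block, p-values measure how far class differences varied between 2 replicates that may share a pool, estimated over all 4 classes. Same-numbered sums deviated together with correlations of 0.0600 to 0.136 over class pairs. DESeq2 1.42.0 and limma 3.58.1 were alternatives, with other windows, limits, depths and left-out plates or replicates. Scripts ran in R 4.3.3 and Python 3.11.15. The edgeR fit was tested on simulated counts. Recovery was required only at a dispersion (spread beyond counting) of 0.05, far below the 0.855 fitted to the data.

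Genes named were the 24 score genes, up to 12 genes per direction past the threshold or, where fewer than 5 passed, the 10 smallest p (predicted, Rik, pseudogene and ribosomal-protein genes left out), list members past the threshold, the 2 to 4 members of each list with the highest mean CPM, and the junction and histamine receptor genes of the study. Some genes that this rule names are not reported here. Symbols were found for 46005 of 46517 gene IDs, and positions are from GENCODE vM21.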

Additional observations from a re-analysis of the deposited data

Results flagged for a closer look

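In 17 of 75 items tested, 1 of the 4 plates stood far from the other three by Dixon's criterion, which chance meets in about 1 in 20 groups. Sparse genes carried most of these values. Among score genes, plate A of replicate 1 stood apart for *Hey1* (139 CPM) and *Car4* (118 CPM), and plate B of replicate 1 for *Gja5* (0.215 CPM), *Sox17* (359.8 CPM), *Btnl9* (68.8 CPM), *Ackr1* (23.0 CPM) and *Bst1* (14.4 CPM). A single well held 91.4% of the summed CPM of *Hey1*, 91.2% of *Car4*, 75.7% of *Bst1* and 74.8% of *Btnl9*, but 10.0% of *Sox17*. Of the junction and histamine receptor genes, *Cldnd1* (175 CPM) and *Nectin1* (0.734 CPM) stood apart on plate A of replicate 1 and *Hrh2* (24.98 CPM, a single well) on plate A of replicate 2.

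Of the genes with the smallest p, *Pdp1* stood apart on plate A of replicate 2 (366 CPM), *Gnl2* on plate B of replicate 2 (160.0 CPM), and *Lrrc47* (236 CPM) and its overlapping neighbour *Smim1* (231 CPM) on plate A of replicate 1. Summed markers of other cells stood apart for keratinocytes on plate A of replicate 1 (1934 CPM), for red blood cells on plate B of replicate 1 (1150 CPM) and, at a low level, for Schwann cells and nerve on plate B of replicate 1 (0.215 CPM).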

How the results depend on the processing

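The count of genes past an adjusted p of 0.05 was 0 in each comparison by edgeR as reported, by limma and in the fit with no replicate block, so the pairing of replicates by number changed no call. The Wald test of DESeq2 gave 449, 482 and 431 genes for intermediate wells against the capillary side, the vein side and the mean of both, and 607 for vein-side against capillary-side wells. Thinning every well to 20000 reads before scoring gave 1, 3 and 1 genes and 25 for the sides, and no filter on low counts gave 7 for the sides. Of 600 values of named genes under the alternatives, 7 changed sign and 29 passed the threshold, all 29 with the Wald test of DESeq2. With thinned scores, *Gaa* was at -1.10 against the capillary side and -0.15 against the mean of both sides, *Pdp1* at -0.57 against the vein side and *Pld2* at -0.56 against the mean. With a limit of 50 CPM on non-BEC genes, *Gaa* was at -2.11 and -1.52, and with a window of 0.15 *Glb1* was at -0.11 against the mean. The causes were not tested.

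Among lists, the number of vein genes above 0 against the vein side was 6 with a window of 0.35, 5 with the limit of 50 CPM and 1 to 7 when a plate or replicate was left out (7 without replicate 2, 1 without plate A of replicate 1 or plate B of replicate 2). For capillary genes it was 8, 8 and 3 against the capillary side with thinned counts, thinned scores and the limit of 50 CPM, and against the vein side 10 with thinned scores and 5 to 11 when a plate or replicate was left out, with 11 of 14 tested without replicate 2 and 10 of 14 without plate B of replicate 1. Inflammatory genes above 0 were 5 against the vein side with thinned scores and, against the capillary side, 13 without replicate 2 and 18 without replicate 1. Genes of the dissociation and immediate early list above 0 against the capillary side were 19 to 26 when a plate or replicate was left out. Likewise 5 to 15 genes of this list were above 0 against the vein side, with 5 without plate B of replicate 1 and 6 without plate B of replicate 2. The share of intermediate wells was 7.61% of kept wells with a window of 0.15, and wells with reads of both kinds of marker were 39.3% and 15.9% after thinning. Low depth limits genes read in few wells, and plate A of replicate 1 held 4 vein-side wells.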
